A study of Homo sapiens with 33 samples.

Results

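CHCHD2 was near the lower limit of detection on the 3 arrays of human embryonic stem cells kept under dual SMAD inhibition for 15 days, and among the brightest probes of each of the other 30 arrays. CHCHD2 has 1 probe among the 48803 probes of the non-normalized table, and it is 1 of 10038 genes tested. It was chosen by its measured intensities, for falling below all other arrays at LSB day 15, so its level there, and every difference that involves that group, is given as a description with no test. The cells were H9, an embryonic stem cell line also named WA-09, taken at passages 32 to 50. Stem cells were kept on a mouse feeder layer, and differentiation took place on matrigel. All groups were given LDN-193189, which blocks the type I receptors for BMP, and SB431542, which blocks the receptors for activin, nodal and TGF-beta. The LSB3i groups (3I in the labels) received in addition CHIR 99021, which blocks the kinase GSK3, DAPT, which blocks Notch cleavage by gamma-secretase, and SU5402, an FGF receptor blocker, and were collected at days 3, 5, 7, 9 and 15. The LSB groups were given LDN-193189 and SB431542 alone and were collected at the same days and also at day 2. Each of the 11 groups has 3 arrays, A, B and C, and all come from 1 cell line. Whether the 3 came from separate cultures is not stated in the labels, so the p-values measure the spread between these arrays, which may be technical.

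CHCHD2 encodes a small protein with a pair of CX9C motifs, which is imported into the mitochondrial intermembrane space by the MIA40 (CHCHD4) disulfide relay. It binds its paralogue CHCHD10 and the MICOS complex that shapes cristae, and it is needed for full activity of respiratory chain complex IV. A nuclear fraction acts with RBPJ and CXXC5 on the promoter of COX4I2, a complex IV subunit gene. CHCHD2 binds the anti-apoptotic protein BCL2L1 at mitochondria, and in human pluripotent stem cells it has been reported to bind SMAD4, the common partner of receptor-activated SMAD proteins, and to bear on neural differentiation.

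The promoter is shown as the sequence around the start of the transcript whose signal was low at LSB day 15. It lies on the minus strand at chr7:56106427-56106726 of GRCh38.p14 in the RefSeq annotation and holds 250 bases before and 50 bases after the transcription start, 5′ to 3′. Capitals mark the ETS core CGGAAG and the cyclic AMP response core TGACGT, searched on both strands.
CHCHD2 promoter: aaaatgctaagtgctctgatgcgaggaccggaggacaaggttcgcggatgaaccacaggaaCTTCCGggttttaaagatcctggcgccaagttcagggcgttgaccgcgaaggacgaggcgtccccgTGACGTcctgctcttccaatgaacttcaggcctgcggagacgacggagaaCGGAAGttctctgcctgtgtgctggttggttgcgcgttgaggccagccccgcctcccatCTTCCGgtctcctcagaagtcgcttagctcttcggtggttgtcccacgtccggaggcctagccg
The ETS core occurred 3 times, at -189, -73 and -14 from the start site, counting its first base on the printed strand. Of 35116 RefSeq promoter windows of the same length, 19.5% held at least 1 such match and 1.23% held at least 3. TGACGT occurred once, at -123, and was in 7.98% of all windows. CCAAT occurred once, at -108, and was in 34.6% of windows. The RBPJ core GTGGGAA, the amino acid response element TGATGNAA and the TATA box TATAAA had no match in this window, and were in 6.25%, 3.62% and 11.5% of all windows. None of these motifs overlapped another in the CHCHD2 window. A match is a description of letters and shows no binding.

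The arrays differed in brightness, with mean signals of 427 to 513 on the LSB day 15 arrays and 298 to 872 over all 33. The number of probes detected at p under 0.01 was 11639 to 12562 at LSB day 15 and 9320 to 13743 over all arrays. The LSB day 15 arrays correlated with each other at 0.957 or more over the tested genes, and at 0.916 or less with any other array. In all, 9 of the 33 arrays, none of LSB day 15, correlated better on average with the arrays of another group than with those of their own. The LSB3i A arrays of days 5, 7 and 9 correlated at 0.990, 0.990 and 0.987 with an array of the LSB3i group before them in time, against at most 0.959, 0.960 and 0.971 with their own group. The LSB3i day 3 A array correlated at 0.976 with an LSB day 3 array, against at most 0.963 with its own group. The sensory neuron gene POU4F1 read 203 on LSB3i day 5 array A, against 1862 and 2013 on B and C. LSB day 7 array C correlated at no more than 0.848 with any array of its own group, and the pluripotency gene LIN28A read 396 on it, against 7409 and 7280 on A and B. The CHCHD2 results that use these arrays are also given without them.

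Marker lists were read on the arrays of the labelled cells. All 7 neuroectoderm genes tested of 10 listed, among them PAX6, OTX2, LHX2 and SIX6, were detected on every LSB day 15 array, with a summed normalised signal of 49971 to 51037, against 41073 to 42283 at LSB day 9. In mean log2 level LHX2, OTX2, SIX3 and SIX6 were higher at LSB day 15. PAX6 (11.78 against 12.40), SOX2 (13.61 against 14.15) and NES (10.11 against 11.06) were lower. A gene was tested only if some group had it detected on all 3 arrays, and SIX6 met this at LSB day 15 alone. All 8 neuron genes and all 4 of 6 sensory neuron genes tested were detected on every LSB3i day 15 array. Of 8 neural crest genes tested, 2 were detected on all 3 LSB day 15 arrays and 4 on none, SOX10 among the 4, with a summed signal of 2239 to 2765, against 721 to 887 at LSB day 9. The neural crest genes detected on all 3 were TFAP2A and EDNRB, and TFAP2A was detected on no LSB day 9 array. Of the 8 neuron genes, 4 were detected on all 3 LSB day 15 arrays and 2 on none. Their summed signal was 6891 to 7632, against 3420 to 4257 at LSB day 9. In mean log2 level TUBB3 (12.24 against 9.67) and DCX (9.95 against 7.14) were higher at LSB day 15, and STMN2 (9.43 against 11.15) was lower. Sensory neuron and mesenchyme lists likewise held both detected and undetected members. Of 4 sensory neuron genes tested, ISL1 was detected on all 3 LSB day 15 arrays and on no LSB day 9 array, and POU4F1 was detected on none of either, with a summed signal of 440 to 538 at LSB day 15, against 165 to 189 at LSB day 9. Of 8 mesenchyme and smooth muscle genes, 6 were detected on all 3 LSB day 15 arrays and POSTN on none, with a summed signal of 13703 to 21456, against 17918 to 19589 at LSB day 9. All 3 epidermis and placode genes tested of 6 listed were detected on every LSB day 15 array, with a summed signal of 1881 to 2882, against 1263 to 1379 at LSB day 9, and AFP, the only endoderm gene tested, on none. The 3 were KRT8, KRT18 and CDH1, which were also detected on every LSB day 2 and day 3 array. The keratins KRT5 and KRT14 were detected on all 3 arrays of no group, and TP63 had no probe. The part of these other cell types in the differences at LSB day 15 was not tested. In bulk RNA, fewer cells that express a gene and less RNA per cell cannot be told apart.

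The deposited CHCHD2 intensities at LSB3i day 15 were 3914, 5843 and 4001 on arrays A, B and C, against 289, 242 and 257 at LSB day 15. At LSB day 9 the same probe read 2377, 1953 and 2304. The 3 LSB day 15 arrays lay far below every array of both other groups. Of all genes, 48.4% did not overlap between LSB3i day 15 and LSB day 15, and 52.1% between LSB day 15 and LSB day 9. On the LSB day 15 arrays the CHCHD2 probe exceeded 79.1%, 78.4% and 74.5% of all probes, while on each of the other 30 arrays it exceeded at least 94.6%. Its detection p-values at LSB day 15 were 0, 0.00395 and 0.00791, so it passed the 0.01 limit on all 3 arrays. The dimmest probe that passed that limit read 245, 217 and 256 on these arrays, so the CHCHD2 level there lay at the edge of what the arrays could measure.

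Deposited intensities of the other groups ran from 1138 to 5580. LSB read 5580, 5108 and 2177 at day 2, 3822, 2840 and 3348 at day 3, and 2321, 2604 and 2446 at day 5. At LSB day 7, whose arrays were dim, the values were 2020, 1598 and 1138. LSB3i read 3963, 3173 and 3056 at day 3, 2415, 2693 and 2841 at day 5, 2828, 2961 and 3608 at day 7, and 3691, 3657 and 4093 at day 9. In LSB3i, no array of any day fell below 2415, and in LSB the lowest array before day 15 was a day 7 array.

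**Figure D1:**
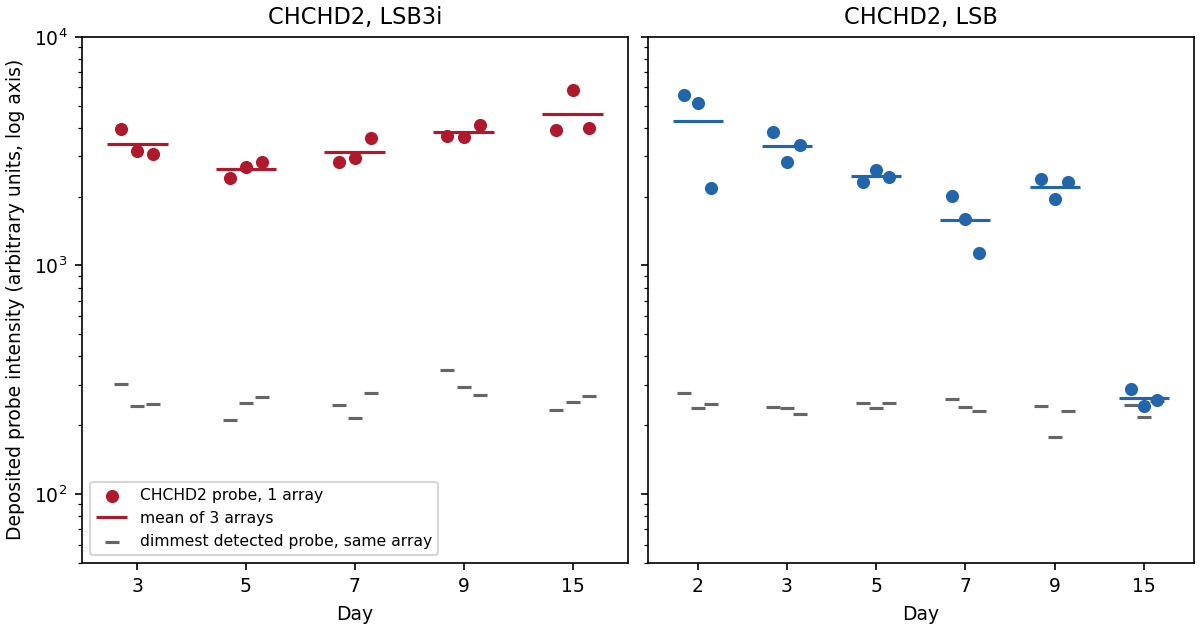
CHCHD2 probe intensity as deposited (arbitrary units, log axis) by day, LSB3i on the left and LSB on the right. Each point is 1 array, the bar is the mean of 3 arrays, and grey dashes mark the dimmest detected probe of the same array. The LSB day 15 points (289, 242 and 257) lie at the dashes, and all other points lie at 1138 or above.

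After background correction and quantile normalisation, CHCHD2 averaged 7.14 ± 0.40 on the log2 scale at LSB day 15 (SD, n = 3 for every group) and 11.05 ± 0.08 at LSB day 9, a difference of -3.91 or 15.0-fold. It averaged 12.81 ± 0.29 at LSB3i day 15, which was 5.66 above LSB day 15, or 50.7-fold. These folds depend on the background correction because the low group is near background. With no background correction the differences were -2.96 and 4.65, and in the authors' own processed values, under matched probe IDs, they were -2.94 and 4.63. The highest LSB day 15 array, at 7.43, was separated from the lowest of the other 30 arrays, an LSB day 5 array at 10.75, by a gap of 3.32 on the log2 scale. The gap was 2.52 to 3.32 over all ways of correcting and scaling that were tried.

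In order of mean log2 level, LSB day 15 was lowest, followed by LSB day 5 (10.98 ± 0.20), LSB day 9, LSB3i day 5 (11.07 ± 0.07), LSB3i day 7 (11.19 ± 0.19), LSB3i day 9 (11.36 ± 0.09), LSB3i day 3 (11.51 ± 0.26), LSB day 3 (11.53 ± 0.16), LSB day 7 (11.61 ± 0.26), LSB day 2 (11.85 ± 0.11) and LSB3i day 15. Of the 10 steps between neighbours in this order of quantile-normalised means, the lowest and the highest separated groups that did not overlap. The lowest step was 3.84 and the highest 0.96, and the 8 steps between them were at most 0.25.

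The differences that do not involve LSB day 15 were tested with limma over all 10038 genes, and a gene was called where its Benjamini-Hochberg adjusted p was under 0.05 with a difference of 2-fold or more. CHCHD2 was not called between LSB3i and LSB at days 3, 5, 7 or 9, where 0.259%, 3.22%, 19.3% and 16.6% of genes were called. At day 3 it differed by -0.02 (95% interval -0.42 to 0.37, adjusted p = 1.0), and at day 5 by 0.09 (-0.31 to 0.48, adjusted p = 0.899). At day 7 it differed by -0.42 (-0.81 to -0.02, adjusted p = 0.0926), and at day 9 by 0.31 (-0.08 to 0.71, adjusted p = 0.235). The arrays of LSB3i and LSB overlapped at days 3 and 5, and did not overlap at day 7, when LSB3i was lower, or at day 9, when LSB3i was higher. Non-overlap was common among all genes, at 35.8% on day 7 and 55.8% on day 9. Median scaling over all probes gave 1.10 at day 7, but it also moved the median difference of all genes to 1.39. Relative to the median of all genes, CHCHD2 was at -0.50 at day 7 as reported and at -0.28 under that scaling. Without the LSB3i A arrays the differences were -0.17 at day 3, 0.05 at day 5, -0.31 at day 7 and 0.36 at day 9 (adjusted p = 1.0, 0.957, 0.271 and 0.220 in that order of days). Without LSB day 7 array C, the day 7 difference was -0.27 (adjusted p = 0.329).

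Within LSB, CHCHD2 was lower at day 9 than at day 2 by 0.80 ± 0.19 (SE, adjusted p = 0.00118), which is 1.74-fold and under the 2-fold limit, while 27.4% of genes were called. Under LSB3i, CHCHD2 rose at day 15, by 1.44 ± 0.19 over day 9 (adjusted p = 8.6e-07), where 28% of genes were called. Against day 3 the rise was 1.30 ± 0.19 (adjusted p = 1.9e-06), where 42.5% of genes were called. After quantile normalisation the 3 LSB3i day 15 arrays lay at 12.62, 13.14 and 12.65, above every other array of the series. In the deposited intensities, LSB day 2 arrays A and B (5580 and 5108) exceeded LSB3i day 15 arrays A and C (3914 and 4001). The same held with median scaling over all probes (12.26 and 12.26 against 11.81 and 11.75). With those A arrays left out the rises were 1.39 over day 9 (adjusted p = 1.6e-05) and 1.44 over day 3 (adjusted p = 4.5e-06). Both LSB3i rises fell under the 2-fold limit with median scaling over all probes, at 0.36 (adjusted p = 0.280) over day 9 and 0.32 (adjusted p = 0.347) over day 3. That scaling moved the median of all genes by -0.98 and -0.80 in these comparisons, and CHCHD2 was 1.34 and 1.12 above those medians. Over the 10 groups without LSB day 15, CHCHD2 varied between groups (F = 19.9, adjusted p = 4.3e-08), as did 8492 of 10038 genes (84.6%).

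Probes that followed the CHCHD2 probe over the arrays were also read. Of the other 14650 probes that passed the detection filter, 4 followed the CHCHD2 probe over the 33 arrays with a Pearson correlation above 0.9, and all 4 have no gene symbol in the annotation used here. They were noticed after their values were seen and fall outside the rule for naming genes. The LSB day 15 arrays count in that correlation, so a low signal there is part of how these probes were found. No named probe exceeded 0.802. These arrays share their labels and brightness, so the correlations are descriptions.

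ILMN_1815124 read 9162, 8661 and 5154 at LSB3i day 15, against 296, 225 and 319 at LSB day 15. It read 4316, 3305 and 4097 at LSB day 9. Its 3 LSB day 15 arrays lay below the other 30, which ranged between 1460 and 9530, and its correlation with CHCHD2 was 0.981 over 33 arrays and 0.902 over the 30 arrays without LSB day 15. ILMN_1677237 read 1046, 1525 and 1311 at LSB3i day 15, against 118, 130 and 155 at LSB day 15, where it was not detected on any array. At LSB day 9 it read 761, 487 and 795, and its correlations with CHCHD2 were 0.982 over 33 arrays and 0.897 over 30. Both probes again had LSB day 15 apart from all other arrays, with gaps of 3.94 and 3.72 on the normalised log2 scale. The other 2 probes had gaps of 3.79 and 1.88, correlations of 0.956 and 0.913 over 33 arrays, and 0.674 and 0.471 over 30 arrays, and were detected on none of the LSB day 15 arrays. These 4 probes were the only ones of the 14650 with a gap of at least 1. RefSeq names 11 processed copies of CHCHD2 (CHCHD2P pseudogenes), no probe is annotated to any of them, and whether these probes share sequence with CHCHD2 was not tested, since probe sequences were not used here. Reads of the CHCHD2 probe from such copies, if any, cannot be told apart from those of CHCHD2.

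**Figure D2:**
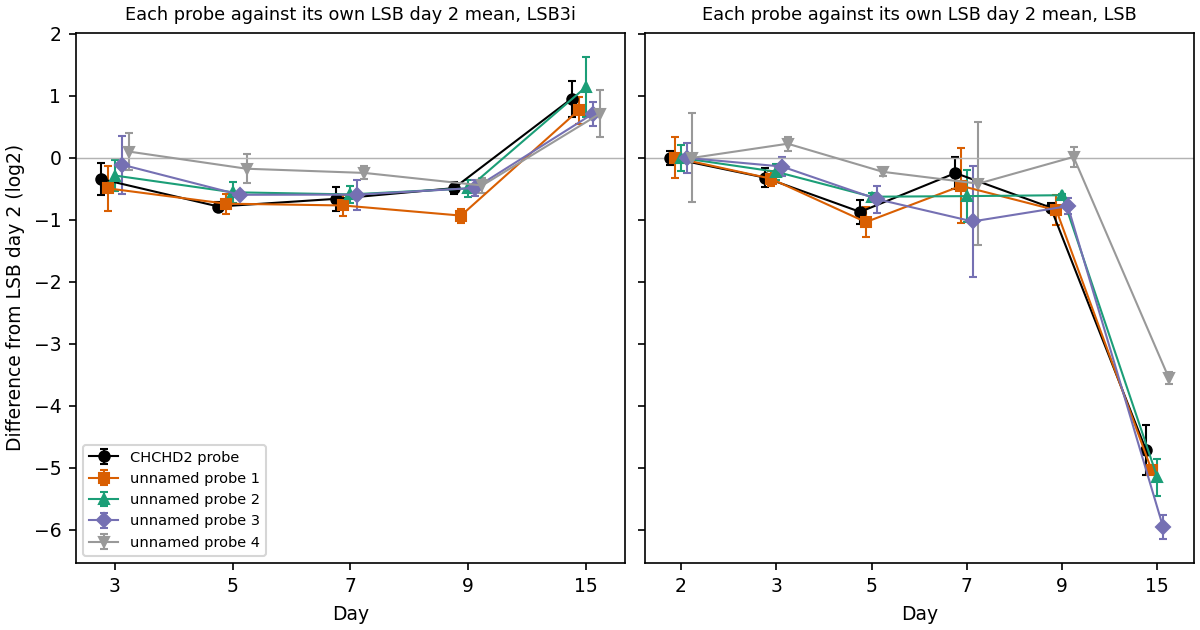
Difference of each group mean from the same probe's LSB day 2 mean (log2, vertical axis; bars are the SD of 3 arrays) by day, LSB3i on the left and LSB on the right, for the CHCHD2 probe and the 4 unnamed probes that correlate with it above 0.9. After quantile normalisation, all 5 probes are above their LSB day 2 mean at LSB3i day 15. At LSB day 15 all 5 differ from that mean by -3.55 or a larger drop.

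Over all genes, a level at LSB day 15 below every other array was rare. It was found for 60 of 10038 genes (0.598%), and CHCHD2 had the largest gap, which is how it was chosen. The next largest gap was 0.785, for BCYRN1, a neuronal non-coding RNA of Alu origin, and the median gap of the other genes below was 0.11. After BCYRN1 came BLOC1S6, a subunit of the lysosome biogenesis complex BLOC-1, CAPRIN2, an RNA-binding protein, TMED10, a cargo receptor between endoplasmic reticulum and Golgi, MRPL44, a mitochondrial ribosomal protein, TSPYL5, the signalling protein BCL10, PCYOX1, which degrades prenylcysteines, CYP20A1 and the lectin CLEC2A. Their gaps lay between 0.30 and 0.57. CLEC2A was detected on no LSB day 15 array and fell below its LSB day 9 level by at least 5.31-fold, and it was detected on no LSB3i day 15 array either.

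BCYRN1 read 868, 711 and 921 at LSB day 15, against 4071, 3552 and 3569 at LSB day 9. BLOC1S6 read 808, 653 and 516 at LSB day 15, against 2464, 1961 and 2777 at LSB day 9. Both genes were listed for lying below all other arrays at LSB day 15, so these groups could not overlap. Both stayed bright enough at LSB day 15 to be detected on all 3 arrays.

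By correlation over 33 arrays, the genes most like CHCHD2 were BLOC1S6 (0.794), TMED10 (0.792), the small thioredoxin-like protein SH3BGRL3 (0.755), C6orf62 (0.751), PCYOX1 (0.742), the ESCRT ATPase VPS4B (0.733), BCL10 (0.730) and the chromatin reader SPIN1 (0.728). Over the 30 arrays without LSB day 15 the values were 0.06 for BLOC1S6, 0.15 for TMED10, 0.59 for SH3BGRL3, 0.31 for C6orf62, 0.06 for PCYOX1, 0.12 for VPS4B, 0.13 for BCL10 and -0.13 for SPIN1. The likeness of most of these genes therefore rested on the 3 LSB day 15 arrays, in contrast to the unnamed probes ILMN_1815124 and ILMN_1677237.

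In the other direction, 209 genes had all LSB day 15 arrays above the other 30, and 24 of them by at least 1. The genes least like CHCHD2 were BHMT, a betaine-dependent methyltransferase of methionine synthesis (-0.945), LINC01551 (-0.921), the retinal transcription factor FOXN4 (-0.920), SIX6, a transcription factor of the eye field (-0.913), and LEFTY2, a secreted inhibitor of nodal that is itself induced by nodal signalling (-0.896). Without the LSB day 15 arrays these correlations were -0.53 for BHMT, -0.20 for LINC01551, -0.39 for FOXN4, -0.40 for SIX6 and 0.27 for LEFTY2. The values over 33 arrays therefore rested in large part on the 3 LSB day 15 arrays. LEFTY2 read 2726, 2936 and 2321 at LSB day 15, against 171, 122 and 140 at LSB day 9, and was detected on no other array of the series. SIX6 read 3438, 1744 and 3132 at LSB day 15, against 257, 251 and 222 at LSB day 9. Both genes have a gap above all other arrays, so their LSB day 15 arrays could not overlap any other group. The largest gaps above were 5.46 for LEFTY2, 3.96 for SIX6, 3.87 for BHMT, 3.49 for the retinaldehyde dehydrogenase ALDH1A1 and 3.31 for the steroid dehydrogenase HSD17B2. LINC01551, the growth factor FGF3, the thyroid hormone deiodinase DIO2, MPPED1 and the histidine decarboxylase HDC followed, with gaps of 1.57 to 3.16.

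**Figure D3:**
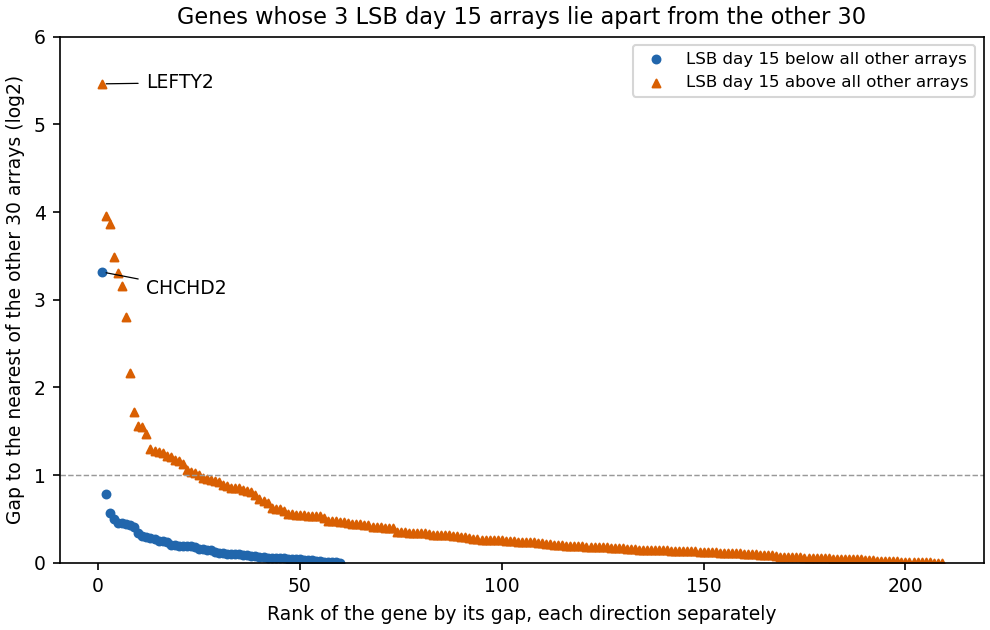
Gap on the normalised log2 scale between the 3 LSB day 15 arrays and the nearest of the other 30 arrays (vertical axis), for each gene ranked by its gap (horizontal axis), with genes below all other arrays as blue circles and genes above them as orange triangles. The dashed line marks a gap of 1. CHCHD2 (3.32) stands alone among the 60 genes below, and LEFTY2 (5.46) leads the 209 genes above.

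None of the tested genes of CHCHD2's own pathway was called lower at LSB day 15 against LSB day 9. In this comparison 19.8% of all genes were called, 9.75% higher and 10% lower. Of 18 tested genes of 19 listed for twin CX9C proteins and their MIA40 import pathway, 1 rose and 0 fell, with a median difference of 0.06 against 0.02 over all genes. CHCHD10, the paralogue and partner, read 1555, 997 and 1684 at LSB day 15, against 633, 499 and 601 at LSB day 9. These groups did not overlap, and CHCHD10 rose by 1.98 ± 0.32 (SE, adjusted p = 3.1e-05), while CHCHD2 was 3.91 lower in the same comparison. CHCHD4, the MIA40 oxidoreductase itself, differed by 0.86 ± 0.24 and the MICOS subunits CHCHD3 and CHCHD6 by -0.22 ± 0.29 and -0.30 ± 0.19, and none of the 3 was called. Of 17 tested genes of 20 listed for complex IV subunits and assembly factors, 0 rose and 0 fell, and their differences lay between -0.43 for the haem farnesyltransferase COX10 and 0.77 for the copper chaperone SCO2. COX4I2, the known nuclear target, was among the listed genes not tested, because it was not detected on all 3 arrays of any group. Without LSB day 15 array B, CHCHD4 was called higher as well. With median scaling over all probes, which moved the median of all genes by -0.58, 4 genes of each list were called lower and 1 CX9C gene was called higher.

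Of 12 tested genes of 13 listed as CHCHD2 partners, 2 rose at LSB day 15 against LSB day 9 and 0 fell. CXXC5, the zinc finger partner at the COX4I2 promoter, read 2363, 2093 and 2773 at LSB day 15, against 909, 533 and 662 at LSB day 9. Its groups did not overlap and it rose by 2.57 ± 0.40 (adjusted p = 2.2e-05). The other gene that rose was CHCHD10. RBPJ, the Notch effector, differed by -0.47 ± 0.24, SMAD4 by -0.05 ± 0.14 and IMMT, the central MICOS subunit, by -0.49 ± 0.22, and none was called. GHITM, an inner membrane protein, differed by 0.79 ± 0.15, the anti-apoptotic BCL2L1 by 0.77 ± 0.27, the fusion GTPase OPA1 by 0.59 ± 0.18 and the matrix protein C1QBP by 0.56 ± 0.16, each with an adjusted p under 0.05 but less than 2-fold. BAX differed by 0.51 ± 0.32, CYCS (cytochrome c) by 0.40 ± 0.23 and the protease YME1L1 by 0.06 ± 0.18, and these were not called.

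The comparison of LSB3i day 15 with LSB day 15 uses the same LSB day 15 arrays, and 29.2% of all genes were called, 13.3% higher and 15.8% lower. Of the partners, CYCS was higher in LSB3i by 2.13 ± 0.23 (adjusted p = 2.9e-08) and the remaining 11 were not called. CHCHD10, at 788, 596 and 1061 in LSB3i day 15, differed from LSB day 15 by -0.96 ± 0.32 (adjusted p = 0.016), just under 2-fold. Of the CX9C list, CHCHD6 (-1.36 ± 0.19) and CHCHD3 (-1.05 ± 0.29) were lower in LSB3i and 0 were higher. Of the complex IV list, the copper chaperone SCO1 was lower (-1.15 ± 0.17) and 0 were higher. CHCHD2 itself was 5.66 higher in LSB3i day 15 in this comparison.

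Of 15 listed genes next to CHCHD2 on 7p11.2, 7 were tested, a number too small to read against the background of calls. At LSB day 15 against LSB day 9, CCT6A, a chaperonin subunit, differed by -0.26 ± 0.18, PSPH, the last enzyme of serine synthesis, by -0.27 ± 0.30, NIPSNAP2 by 0.17 ± 0.21, the mitochondrial ribosomal protein gene MRPS17 by -0.21 ± 0.28 and VOPP1 by -0.22 ± 0.52. The sulfatase-modifying factor SUMF2 read 1072, 1482 and 1813 at LSB day 15, against 3293, 2252 and 3264 at LSB day 9, and differed by -0.63 ± 0.22 (adjusted p = 0.029), under 2-fold. LANCL2, a lanthionine synthetase-like protein, read 529, 395 and 470 at LSB day 15, against 291, 214 and 235 at LSB day 9, and rose by 1.85 ± 0.41 (adjusted p = 0.0011). With 1 of 7 neighbours called, higher, against 19.8% of all genes called in either direction, the count gives no result about the neighbours as a group. With median scaling over all probes 1 was called lower as well. At LSB3i day 15 against LSB day 15, LANCL2 was higher by 1.54 ± 0.41 (adjusted p = 0.0033), and the other 6 were not called.

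Genes that often carry common deletion or splice alleles, and can be off in one cell line and on in another, were also read. Of 6 listed, 4 were tested. ERAP2, an aminopeptidase, read 3108, 3574 and 3033 at LSB day 15, against 12397, 9577 and 11141 at LSB day 9, and fell by 1.29 ± 0.18 (adjusted p = 4e-06). GSTM1, a glutathione transferase, rose by 1.02 ± 0.19 (adjusted p = 0.00012), and it was not called with no background correction, with median scaling over all or over detected probes, in the authors' processed values, without LSB day 15 array B or without LSB day 9 array A. GSTT1 differed by -0.10 ± 0.21 and APOBEC3B was detected in neither group. GSTM1, GSTT1 and ERAP2 were detected on all arrays of LSB day 15 and LSB day 9. Genes detected in both groups cannot tell cell lines apart, and cell line identity was not tested.

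Genes of the mitochondrial and amino acid stress response, which are driven by the transcription factors ATF4 and ATF5, were read at the same times. Of 17 tested genes of 19 listed, 10 rose at LSB day 15 against LSB day 9 and 0 fell. Their median difference was 1.29 against 0.02 over all genes, of which 9.75% were called higher and 10% lower. ATF5 read 1693, 1230 and 2452 at LSB day 15, against 529, 279 and 289 at LSB day 9, and rose by 3.39 ± 0.49 (adjusted p = 6.6e-06). PCK2, the mitochondrial phosphoenolpyruvate carboxykinase, read 1967, 2087 and 3071 at LSB day 15, against 985, 538 and 612 at LSB day 9, and rose by 2.51 ± 0.41 (adjusted p = 3.9e-05). In neither gene did the groups overlap. TRIB3, a pseudokinase induced by ATF4, was higher by 3.10 ± 0.40 and was detected on 1 of 3 LSB day 9 arrays. GDF15, a secreted stress hormone, rose by 1.84 ± 0.46, the one-carbon enzymes SHMT2 and MTHFD2 by 1.52 ± 0.19 and 1.49 ± 0.23, asparagine synthetase (ASNS) by 1.35 ± 0.29, the transcription factor DDIT3 by 1.31 ± 0.34, the matrix protease LONP1 by 1.29 ± 0.21 and the serine synthesis enzyme PHGDH by 1.02 ± 0.15. ATF4 itself differed by -0.08 ± 0.14, ATF3 by -0.07 ± 0.36 and the matrix chaperones HSPD1 and HSPE1 by 0.09 ± 0.71 and -0.16 ± 0.20, and none of the 4 was called.

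The stress count was 9 or 10 higher and 0 lower under the alternatives tried, leaving out single arrays included, except with median scaling over all probes, where 4 were higher and 3 lower. The stress list was also read in the other comparisons. Among those in which CHCHD2 was tested, it was called only at LSB3i day 15 against LSB3i days 9 and 3. At LSB3i day 7 against LSB day 7, 10 of the 17 stress genes were higher and 0 lower, with a median of 1.40 against 0.09 over all genes and with 19.3% of all genes called. Without LSB day 7 array C 6 were higher, with median scaling over all probes 16, and without the LSB3i A arrays 10. At LSB3i against LSB, 4 were higher and 0 lower at day 5, 4 higher and 1 lower at day 9, and 0 were called at day 3. Of all genes, 3.22% were called at day 5, 16.6% at day 9 and 0.259% at day 3. At LSB day 9 against LSB day 2, 1 was higher and 1 lower, with 27.4% of all genes called. At LSB3i day 15, 0 were higher and 8 lower against LSB3i day 9, with 28% of all genes called. Against LSB3i day 3, 2 were higher and 5 lower, with 42.5% of all genes called. At LSB3i day 15 against LSB day 15, 11 of the 17 stress genes were lower in LSB3i and 0 higher. Their median was -1.5 against -0.10 over all genes, and 29.2% of all genes were called. GDF15 was detected on no LSB3i day 15 array and was at least 7.53-fold lower there. PCK2 differed by -3.45 ± 0.41 and the serine aminotransferase PSAT1 by -2.55 ± 0.19, and both were called lower. Marker lists moved between these groups too: all 8 neuron genes were higher in LSB3i day 15, with a summed signal of 151795 to 159289 against 6891 to 7632 at LSB day 15, and 6 of 7 neuroectoderm genes were lower. Their part in the CHCHD2 and stress differences was not tested.

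Targets of SMAD signalling were read because both SMAD arms were inhibited and CHCHD2 has been linked to SMAD4. Of 7 tested genes of 12 listed, 6 were called higher at LSB day 15 against LSB day 9 and 0 lower, with a median of 1.62. Of all genes, 9.75% were called higher and 10% lower. With median scaling over all probes, 4 SMAD targets were called higher and 0 lower. LEFTY2, a target of the activin and nodal arm, was at least 39.9-fold higher. ID3, ID1 and ID2, targets of the BMP arm, rose by 2.82 ± 0.26, 2.42 ± 0.59 and 1.28 ± 0.31, and SMAD6, an inhibitory SMAD induced by BMP, by 1.62 ± 0.35. PMEPA1, a TGF-beta target, was detected on 1 LSB day 15 array and on no LSB day 9 array, so its call has no fold. BAMBI, a pseudoreceptor, differed by 1.51 ± 0.65 and was not called. At LSB3i day 15 against LSB day 15, 5 of these 7 genes were lower in LSB3i and PMEPA1 was higher by 2.82 ± 0.35. Of all genes, 15.8% were called lower and 13.3% higher in that comparison. The pluripotency gene NANOG, a target of activin signalling, was detected on all 3 LSB day 15 arrays and on no LSB day 9 array. It was at least 2.35-fold higher at LSB day 15, and POU5F1 was detected on 1 LSB day 15 array. Over the 7 pluripotency genes tested of 8 listed, the summed signal was 15682 to 16737 at LSB day 15, against 21254 to 22162 at LSB day 9. In mean log2 level, DPPA4 (11.32 against 12.10), ZFP42 (9.43 against 10.31), L1TD1 (9.77 against 10.83) and LIN28A (13.36 against 13.73) were lower at LSB day 15. DNMT3B was higher (9.66 against 9.08).

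**Figure D4:**
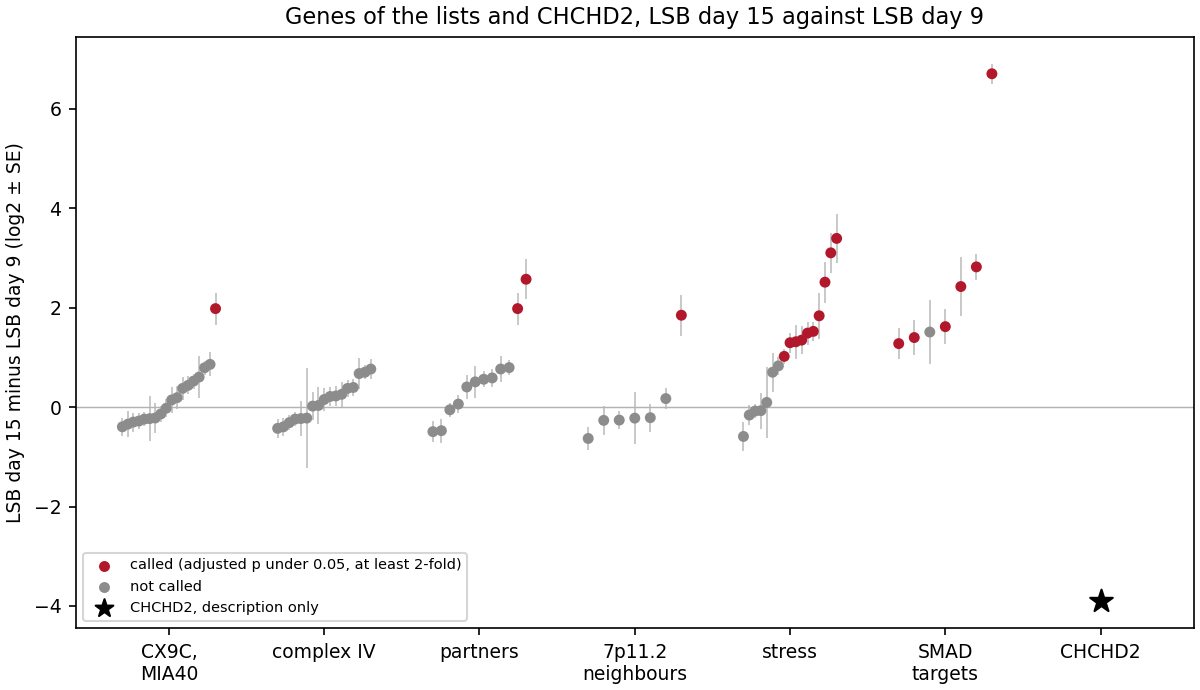
Difference of LSB day 15 minus LSB day 9 on the log2 scale (vertical axis; bars are ± SE) for each tested gene of 6 lists and for CHCHD2 (star, description only). Red points were called (adjusted p under 0.05, with 2-fold or more), and grey points were not. CHCHD2, at -3.91, lies below every gene shown. Of the stress genes 10 of 17, and of the SMAD targets 6 of 7, were called higher, against 9.75% of all genes.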

How the data were processed

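Total RNA of 33 samples was hybridised to Illumina bead arrays. Per the file headers, each probe has in the deposited non-normalized table an intensity (linear, summarised over beads by the authors) and a detection p-value. GenomeStudio is named in the submitters' processing notes, with no version given in the sources used here. The authors' processed table holds linear intensities under IDs that do not match those of the non-normalized table: joined by ID, an array's values correlated at 0.227 to 0.290. One-to-one matching on ranks paired 48780 of 48803 probes, with correlations of at least 0.983. The identity of CHCHD2 therefore rests on the IDs of the non-normalized table, under which 2 probes of the same gene correlated at a median of 0.898 (914 pairs), against 0.285 (758 pairs) under the processed table's IDs. Under matched IDs, the processed values served as an alternative.

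Probes were named from the platform annotation, which gave 1 symbol to 28098 probes, several to 13 and none to 20692. Intensities were corrected by normexp with detection p-values and an offset of 16, quantile-normalised and taken to log2 with limma 3.58.1 in R 4.3.3. A probe was kept if some group had it detected, at p under 0.01, on all of its 3 arrays (14651 probes, 12708 with 1 symbol), and the probe of highest mean stood for each gene (10038 genes). All 11 groups were fitted together by lmFit and eBayes (22 residual degrees of freedom) with Benjamini-Hochberg adjustment. Calls needed an adjusted p under 0.05 and a 2-fold difference. A gene detected on no array of 1 group has its fold given as a lower bound, from the higher of its own signal and the dimmest detected probe of each array. The number of arrays limits the precision.

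Named were CHCHD2, the 8 genes most and 5 least alike over 33 arrays, the 10 with the largest gap in each direction, all partners and neighbours, and up to 6 called genes of each other list. Further list members, the marker genes and the unnamed probes were added after their values were seen. CHCHD2, the lists and the rules were chosen with earlier results of these data known. The same fit was tested on simulated data. Python 3.11.15 was used for joins and motif counts. Promoter sequence and gene names came from RefSeq (GRCh38.p14). Alternatives varied the correction, scaling, filter, probe choice, arrays and replicate block. The stress counts without the LSB3i A arrays or LSB day 7 array C were added after seeing the data.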

Additional observations from a re-analysis of the deposited data

Results flagged for a closer look

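The change of CHCHD2 at day 15 against day 9 had opposite directions under the treatments: it was higher on every LSB3i day 15 array than on every LSB3i day 9 array, and lower on every LSB day 15 array than on every LSB day 9 array, and the changes differed by 5.35 on the log2 scale. The difference between LSB3i and LSB was 6.08 larger at day 15 than at day 7, with every array of LSB3i above LSB at day 15 and below it at day 7. These orders are those after quantile normalisation. In the deposited intensities, LSB3i at day 7 (2828, 2961 and 3608) was above LSB (2020, 1598 and 1138), as with median scaling over all probes. There, LSB3i day 15 (3914, 5843 and 4001) also overlapped LSB3i day 9 (3691, 3657 and 4093). Neither difference was tested, because CHCHD2 was chosen for its level at LSB day 15.

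The same opposition between treatments, day 15 against day 9, appeared for 13 of the 79 tested genes of the 7 lists (16.5%) and for 941 of all 10038 genes (9.37%), and these differences were not tested either. Given as the LSB3i change minus the LSB change on the log2 scale, it was -4.77 for ATF5, -4.57 for PCK2, -3.05 for PSAT1, -2.74 for MTHFD2, -2.59 for DDIT3, -2.29 for CHAC1 and -2.17 for SHMT2 among the stress genes. It was -4.96 for ID1, -2.94 for ID2 and -2.92 for BAMBI among the SMAD targets. It was -1.37 for GSTM1, 1.79 for ERAP2 and -0.93 for SCO1. No test of single arrays was made, since each group has 3.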

How the results depend on the processing

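The CHCHD2 gap was 2.89 with median scaling, 2.54 with no background correction, 2.83 with an offset of 50 and 2.52 in the authors' processed values, against 3.32 as reported. LSB day 15 minus LSB day 9 was -4.41, -2.96, -3.30 and -2.94 under the same settings, and LSB3i day 15 minus LSB day 15 was 5.19, 4.65, 5.02 and 4.63, and 5.30 with median scaling over detected probes, a setting chosen after seeing the data. With that last setting LSB day 9 minus LSB day 2 was -1.10 and called (adjusted p = 8.1e-06). With median scaling over all probes the LSB3i rise at day 15 was 0.32 over day 3 and 0.36 over day 9, and the day 7 difference was 1.10, which is -0.28 relative to the median of all genes (-0.50 as reported). The causes were not tested. Genes called at LSB day 15 against day 9 numbered 3092 with median scaling, 923 with no background correction, 1247 with an offset of 50, 904 in the processed values and 3050 with every probe fitted alone, against 1985, and the share called higher was 11.3% with median scaling, against 49.3%. At LSB3i day 15 against LSB day 15 they numbered 1695 with no background correction and 1662 in the processed values, against 2927. Averaged over 55 pairs of groups, shared letters did not pair the arrays (mean correlation of deviations 0.00384 within a letter and -0.00152 between letters). That average does not describe single arrays, and the LSB3i A arrays of days 5, 7 and 9 each correlated best with the LSB3i group before them. With the replicate block, LSB day 15 minus day 9 was -3.91, LSB3i day 15 minus day 9 was 1.44, the calls at LSB day 15 against day 9 numbered 1987, and no CHCHD2 call changed. Leaving out single arrays changed no CHCHD2 call, and no direction where the 2 groups did not overlap. LSB3i and LSB overlapped at days 3 and 5, and there the sign of the small differences (-0.02 and 0.09) depended on single arrays. The near-background signal at LSB day 15 limits every fold against it.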
